A study of Mus musculus with 12 samples.

Results

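The genes that carry the insulin signal from the receptor to AKT were followed in 3T3-L1 fat cells given more or less of Foxp1, a forkhead transcription factor. The set holds 8 of the 28948 genes listed: Insr, Irs1, Pik3r1, Pik3ca, Pik3cb, Akt1, Akt2 and Tbc1d4, found by matching each gene identifier to its symbol. All 8 were among the 11245 genes that passed the filter of at least 1 RPKM in at least 3 libraries. RPKM counts reads per exon kilobase, corrected for the depth of the library, so levels of different genes can be set side by side per length.

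Insulin binds the insulin receptor, a tyrosine kinase encoded by Insr, which phosphorylates docking proteins of the IRS family. These recruit PI3-kinase, a dimer of a regulatory and a catalytic subunit, whose lipid product brings AKT to the membrane to be activated. In fat cells AKT phosphorylates the Rab GTPase-activating protein TBC1D4, which releases vesicles holding the glucose transporter GLUT4 to the cell surface. Most of this control acts on phosphorylation and location, and RNA levels do not measure either.

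There were 4 groups of 3 libraries. The first had constituent overexpression of FOXP1, in the words of the labels, and its reference was an empty vector control. The other manipulated group had a Foxp1 shRNA, a short hairpin RNA that lowers Foxp1, and its reference was a scrambled shRNA control. All libraries come from 1 line, 3T3-L1, whose Swiss mouse embryo fibroblasts are turned into fat cells by hormones. All 4 groups were differentiated with insulin at 5 µg/ml, dexamethasone at 1 µM, troglitazone at 10 µM and isobutylmethylxanthine at 0.5 mM, then had insulin alone from day 4 and growth medium from day 6. The medium at first thus held insulin in every group, and no group without insulin was analysed here. The day of harvest, the method of gene transfer and what a replicate is were not stated, so p-values measure only the spread between these libraries, which may be technical.

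Foxp1 had 5.78, 7.16 and 6.75 RPKM in the overexpression libraries, against 1.83, 1.76 and 1.82 RPKM in the empty vector libraries. It had 1.11, 1.14 and 1.08 RPKM in the knockdown libraries, against 2.24, 2.20 and 2.11 RPKM in the scrambled libraries. Neither pair of groups overlapped, and both went the way of the labels. Depth was 35252019 to 38450002 assigned reads a library. The Pearson r between replicates of a group, on log2(RPKM + 1) over every listed gene, was at least 0.9972. Overexpression replicate 3 stood apart, with 13.09% of reads from the mitochondrial genome, where the other libraries of its group had 9.98% and 9.63%. That share averaged 10.9% ± 1.9 with overexpression, 9.02% ± 0.39 with empty vector, 6.33% ± 0.43 with knockdown and 5.36% ± 0.49 with scrambled hairpin (SD, n = 3 each).

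The adipocyte label was checked on 10 markers, none of which was under 0.1 RPKM in all libraries. Their summed level was 3633 to 3915 RPKM with overexpression and 9243 to 9453 RPKM with empty vector, and all 9 of the tested markers were lower with overexpression. It was 9344 to 10031 RPKM with knockdown and 6725 to 6979 RPKM with scrambled hairpin, with 5 of 9 markers higher and 3 lower. The lower markers were Pparg, Cebpa and Retn, and the largest rise in RPKM was that of Cidec, at 3961 against 2294 on average. Of all tested genes, 31% were higher and 20.3% lower with overexpression, and 18.7% higher and 31% lower with knockdown. The sum of 8 preadipocyte or fibroblast markers was 122 to 128 RPKM with overexpression, 108 to 120 RPKM with empty vector, 126 to 141 RPKM with knockdown and 143 to 162 RPKM with scrambled hairpin, with Cd34 under 0.1 RPKM everywhere. Of the 6 tested, 4 were higher and 2, Pdgfra and Ly6a, lower with overexpression, and 1 was higher and 2 lower with knockdown. Among 6 macrophage markers, Adgre1, Itgam and Ptprc were under 0.1 RPKM in every library, and the list summed to 4.51 to 5.08 RPKM with overexpression, 5.41 to 7.47 RPKM with empty vector, 5.13 to 5.81 RPKM with knockdown and 5.43 to 7.54 RPKM with scrambled hairpin. The 4 endothelial markers found, with Kdr and Tek under 0.1 RPKM everywhere, summed to 0.387 to 0.531 RPKM with overexpression, 0.187 to 0.248 RPKM with empty vector, 0.254 to 0.306 RPKM with knockdown and 0.273 to 0.311 RPKM with scrambled hairpin. Of 3 skeletal muscle markers found, Myog and Ckm were under 0.1 RPKM everywhere, so that the sum was in effect the level of Acta1 alone. That sum was 36.2 to 42.2 RPKM with overexpression, 12.5 to 13.7 RPKM with empty vector, 1.48 to 1.87 RPKM with knockdown and 1.03 to 1.11 RPKM with scrambled hairpin. The part of these marker differences in the results below was not tested, and fewer cells of a type and less RNA per cell cannot be told apart in bulk RNA.

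The promoters of the genes that changed most, Irs1, Pik3r1 and Tbc1d4, follow, with the single window of the set that held the forkhead core. Each is the 250 bases upstream of a transcription start, from RefSeq on GRCm38.p6, read 5′ to 3′ on the strand of the gene, which is the minus strand for all of them. Capitals mark matches, on either strand, to TGTTTAC (the forkhead core that Foxp proteins can bind), GGGCGG (the GC box) or CACGTG (the E-box).
Irs1 chr1:82291440-82291689: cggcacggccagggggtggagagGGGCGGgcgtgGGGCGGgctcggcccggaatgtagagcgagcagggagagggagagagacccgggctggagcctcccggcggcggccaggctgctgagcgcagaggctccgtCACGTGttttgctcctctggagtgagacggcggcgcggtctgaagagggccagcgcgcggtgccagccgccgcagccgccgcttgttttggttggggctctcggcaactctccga
Pik3r1 first start chr13:101692631-101692880: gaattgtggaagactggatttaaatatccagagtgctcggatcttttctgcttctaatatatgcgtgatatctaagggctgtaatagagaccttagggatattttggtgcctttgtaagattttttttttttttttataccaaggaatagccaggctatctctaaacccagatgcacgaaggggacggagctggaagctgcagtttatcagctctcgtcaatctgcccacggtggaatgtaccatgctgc
Pik3r1 second start chr13:101768218-101768467: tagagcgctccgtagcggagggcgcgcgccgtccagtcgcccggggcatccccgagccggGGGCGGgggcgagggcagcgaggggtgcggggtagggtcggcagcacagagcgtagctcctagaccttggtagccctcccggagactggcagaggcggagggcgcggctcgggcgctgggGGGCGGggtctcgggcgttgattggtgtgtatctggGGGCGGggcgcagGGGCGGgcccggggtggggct
Tbc1d4 chr14:101609192-101609441: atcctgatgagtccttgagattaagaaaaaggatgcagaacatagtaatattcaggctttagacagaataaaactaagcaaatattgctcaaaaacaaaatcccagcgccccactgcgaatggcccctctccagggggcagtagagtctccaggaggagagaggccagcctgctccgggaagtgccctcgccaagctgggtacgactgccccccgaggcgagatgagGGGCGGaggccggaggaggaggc
Akt1 second start chr12:112674885-112675134: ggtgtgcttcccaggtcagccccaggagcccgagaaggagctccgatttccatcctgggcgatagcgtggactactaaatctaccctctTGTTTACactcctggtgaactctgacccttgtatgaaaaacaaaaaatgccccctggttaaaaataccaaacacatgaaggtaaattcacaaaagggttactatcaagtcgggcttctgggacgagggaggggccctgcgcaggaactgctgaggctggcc

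These windows differed in what they held. Irs1 had 2 GC boxes and 1 E-box, the first Pik3r1 start had no match to any of these motifs and the second had 4 GC boxes, and Tbc1d4 had 1 GC box. Over the 12 windows of 7 matched genes, TGTTTAC occurred once, in the second Akt1 window, with its first base at -161 from the start. Among all 32851 mouse windows of the same length, 3.17% held TGTTTAC, 32.74% held GGGCGG and 6.02% held CACGTG. A match is a description of letters in a window, and its absence says nothing about binding elsewhere. The first Pik3r1 start lies within the gene, and the values for Pik3r1 sum all its transcripts, so its starts were not separated.

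The order of levels shows which steps are abundant as RNA. In empty vector cells Akt1 had the highest level of the 8 genes, at 60.7 ± 0.85 RPKM, followed by Akt2 at 40.7 ± 0.80 and Pik3r1 at 26.3 ± 0.79 RPKM (SD, n = 3). The receptor and the proteins on either side of PI3-kinase and AKT were lower, with Insr at 9.10 ± 0.20, Irs1 at 7.98 ± 0.24 and Tbc1d4 at 6.67 ± 0.12 RPKM. The catalytic subunits were lowest, with Pik3ca at 5.27 ± 0.09 and Pik3cb at 1.55 ± 0.15 RPKM. No neighbours in that order overlapped between libraries. In the other groups the order moved in the middle. With overexpression Pik3r1, at 53.0 ± 2.4 RPKM, stood above Akt2, at 33.8 ± 2.2 RPKM, Tbc1d4 stood above Insr and Irs1 stood below Pik3ca. In scrambled cells Tbc1d4 stood above Insr and Irs1 below Pik3ca, and with knockdown Tbc1d4 and Insr were neighbours whose libraries overlapped.

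**Figure D1:**
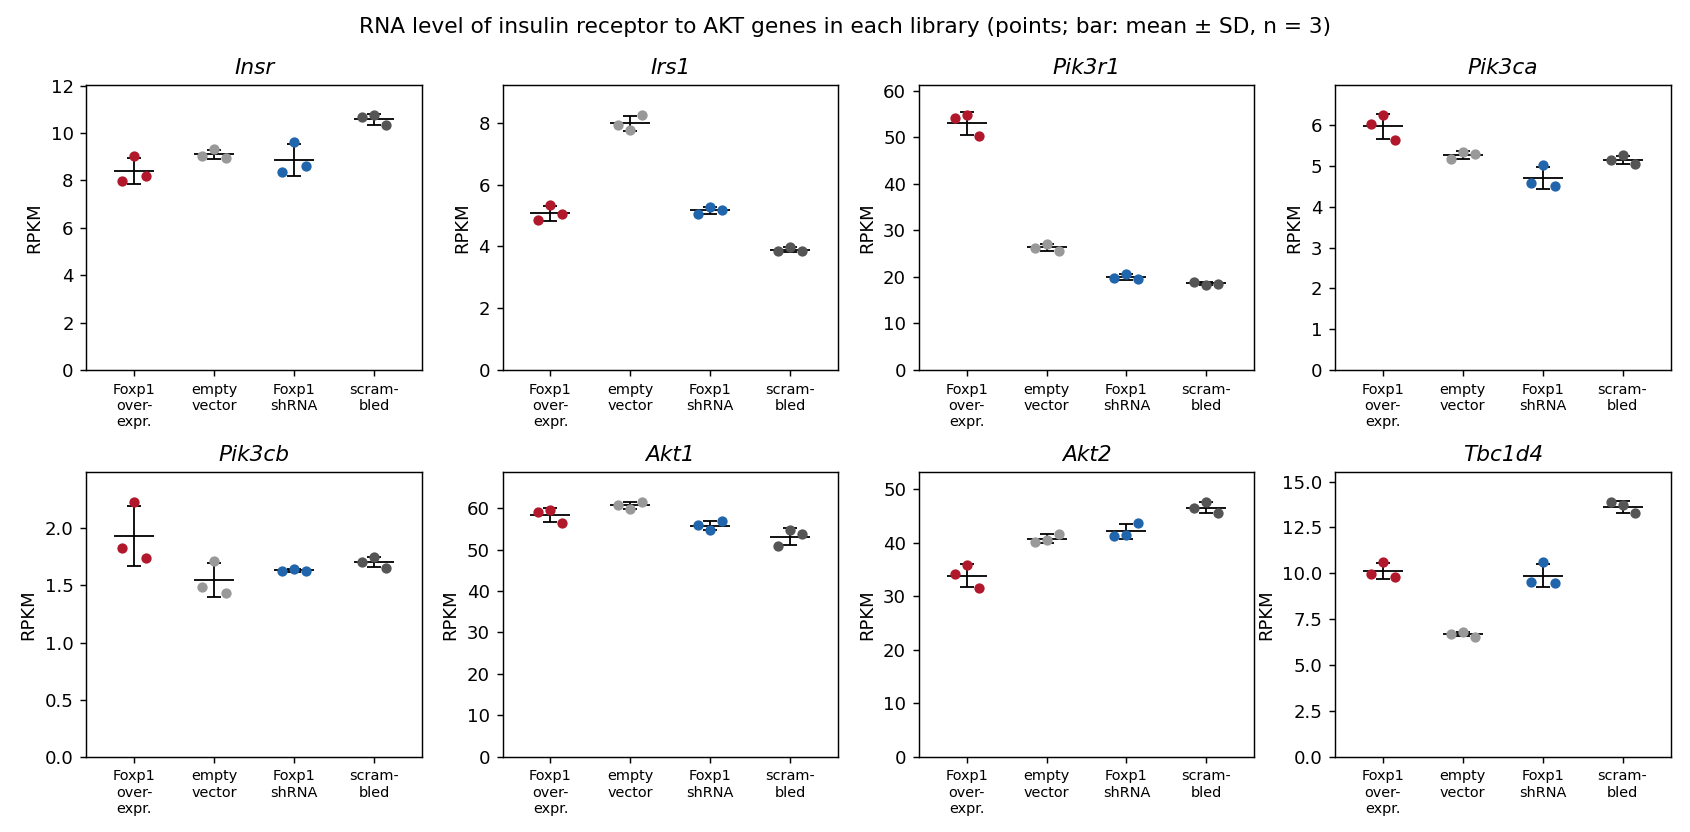
RNA level in RPKM (y axis, from 0) of each of the 8 genes in the 12 libraries (points), with bars for the mean ± SD of 3 libraries in the overexpression, empty vector, Foxp1 shRNA and scrambled groups. Pik3r1 stands out with overexpression at 50.2 to 54.6 RPKM, while Irs1 and Tbc1d4 are ordered over the 4 groups in opposite ways.

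Overexpression was set against empty vector to ask what more Foxp1 did to these genes. Pik3r1, the regulatory subunit, rose 2.01-fold, Tbc1d4 rose 1.52-fold, and Irs1 fell to 0.636 of its level in empty vector cells. Akt2 fell to 0.831, while the catalytic subunits Pik3ca and Pik3cb rose 1.13-fold and 1.25-fold. Neither Insr nor Akt1 passed the test. Thus 4 of 8 genes were higher and 2 lower at a Benjamini-Hochberg adjusted p under 0.05 from limma, which is the threshold throughout. Of all 11245 tested genes 51.4% were called in this comparison, 31% higher and 20.3% lower, and the count of 6 in 8 is to be read against that share. The median log2 fold change of the 8 genes was 0.05, and that of all tested genes was 0.04.

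Insr, the receptor itself, had 7.99, 9.04 and 8.18 RPKM with overexpression, against 9.03, 9.33 and 8.94 RPKM with empty vector. Overexpression replicate 2 lay among the empty vector libraries, so the groups overlapped. The log2 fold change was -0.10 ± 0.05 (SE) with an adjusted p of 0.121.

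Irs1, the docking protein that binds PI3-kinase once phosphorylated, had 4.84, 5.33 and 5.06 RPKM with overexpression, against 7.95, 7.76 and 8.24 RPKM with empty vector. Every overexpression library was below every empty vector library. Its log2 fold change was -0.56 ± 0.04 (SE; adjusted p = 1.23e-07), a larger change than in 90.8% of tested genes. The exons of Irs1 share 2822 bases with Gm9747 on the opposite strand, and the strand setting of the counting is not given in the sources used here, so reads of both cannot be told apart in that stretch.

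Pik3r1 encodes the alpha regulatory subunits, which hold the catalytic subunit at the docking protein. It had 54.1, 54.6 and 50.2 RPKM with overexpression, against 26.3, 27.1 and 25.5 RPKM with empty vector. The lowest overexpression library, replicate 3, was still far above the highest empty vector library. The log2 fold change was 0.98 ± 0.04 (SE; adjusted p = 1.38e-09), larger in size than in 97.2% of tested genes.

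Pik3ca, the alpha catalytic subunit, had 6.05, 6.24 and 5.63 RPKM with overexpression, against 5.17, 5.34 and 5.30 RPKM with empty vector. Pik3cb, the beta catalytic subunit, had 1.83, 2.23 and 1.74 RPKM with overexpression, against 1.49, 1.72 and 1.44 RPKM with empty vector. Neither pair of groups overlapped, but the gap for Pik3cb was small beside the spread of its libraries. The log2 fold changes were 0.15 ± 0.04 for Pik3ca (SE; adjusted p = 0.0122) and 0.20 ± 0.06 for Pik3cb (adjusted p = 0.0168). Both calls ended after rescaling to TPM (adjusted p = 0.156 and 0.074) and without overexpression replicate 2 (0.0524 and 0.0693), and that of Pik3cb also ended without empty vector replicate 1 (0.0563) or 3 (0.0691). Pik3cb rested on 364 to 589 reads a library across the 4 groups, the fewest of the 8 genes.

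Akt1, the isoform found in most tissues, had 59.1, 59.6 and 56.5 RPKM with overexpression, against 60.8, 59.8 and 61.5 RPKM with empty vector. The groups did not overlap, by a narrow gap, and the change of -0.05 ± 0.04 (log2, SE) did not pass the test (adjusted p = 0.244). Akt2, the isoform most tied to glucose uptake in fat and muscle, had 34.1, 35.9 and 31.5 RPKM with overexpression, against 40.0, 40.6 and 41.6 RPKM with empty vector. All overexpression libraries were lower, and the log2 fold change was -0.26 ± 0.05 (SE; adjusted p = 0.000433).

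Tbc1d4, the AKT substrate that restrains GLUT4 vesicles, had 9.96, 10.6 and 9.78 RPKM with overexpression, against 6.70, 6.78 and 6.54 RPKM with empty vector. Every overexpression library was higher. Its log2 fold change was 0.53 ± 0.05 (SE; adjusted p = 8.38e-07). In all, 7 of 8 genes had groups that did not overlap, where 57.5% of all tested genes did so. Without overexpression replicate 3 the log2 fold changes were -0.56 for Irs1, 1.02 for Pik3r1, 0.56 for Tbc1d4 and -0.21 for Akt2, and 6 genes were called.

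The knockdown was set against the scrambled hairpin to ask what less Foxp1 did. Irs1 rose 1.33-fold and Tbc1d4 fell to 0.724 of its level in scrambled cells, each opposite to its change with overexpression. Insr fell to 0.837 and Akt2 to 0.905, while Pik3r1, Pik3ca, Pik3cb and Akt1 did not pass the test. Thus 1 of 8 genes was higher and 3 were lower, where 49.7% of all tested genes were called, 18.7% higher and 31% lower. The median log2 fold change of the 8 genes was -0.07, and that of all tested genes was -0.04.

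Insr had 8.34, 9.62 and 8.59 RPKM with knockdown, against 10.7, 10.7 and 10.3 RPKM with scrambled hairpin. All knockdown libraries were lower, replicate 2 being the closest. Its log2 fold change was -0.23 ± 0.05 (SE; adjusted p = 0.00298).

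Irs1 had 5.06, 5.28 and 5.19 RPKM with knockdown, against 3.85, 3.98 and 3.86 RPKM with scrambled hairpin. Every knockdown library was higher, and the spread within each group was small beside the gap. The log2 fold change was 0.33 ± 0.04 (SE; adjusted p = 2.6e-05), larger in size than in 84.5% of tested genes.

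Pik3r1 had 19.8, 20.7 and 19.4 RPKM with knockdown, against 19.0, 18.3 and 18.5 RPKM with scrambled hairpin. The knockdown libraries were all slightly higher, and the change of 0.10 ± 0.04 (log2, SE) missed the threshold (adjusted p = 0.068). It passed after median-ratio scaling (0.00788), quantile normalization (0.0126) or scaling to reads outside the mitochondrial genome (0.0224), and without overexpression replicate 3 (0.0272), which enters the shared estimate of spread.

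Pik3ca had 4.59, 5.03 and 4.52 RPKM with knockdown, against 5.14, 5.26 and 5.06 RPKM with scrambled hairpin. Its groups stood apart by a narrow gap set by knockdown replicate 2, and the change of -0.11 ± 0.04 (log2, SE) had an adjusted p of 0.0583, which became 0.016 without that library, 0.0335 without overexpression replicate 3 and 0.045 with voom on the recovered reads. Pik3cb was at 1.63, 1.65 and 1.62 RPKM with knockdown, against 1.71, 1.75 and 1.66 RPKM with scrambled hairpin, with a change of -0.04 ± 0.06 and an adjusted p of 0.624. The groups of Pik3cb were close together, although they did not overlap.

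Akt1 had 55.9, 54.7 and 56.8 RPKM with knockdown, against 50.9, 54.8 and 53.9 RPKM with scrambled hairpin, and was the only one of the 8 genes whose groups overlapped here. Its log2 change of 0.07 ± 0.04 (SE) had an adjusted p of 0.143. Akt2 had 41.2, 41.4 and 43.7 RPKM with knockdown, against 46.5, 47.6 and 45.5 RPKM with scrambled hairpin, so that all knockdown libraries were lower. Its log2 fold change was -0.14 ± 0.05 (SE; adjusted p = 0.0221), and the call ended without knockdown replicate 1 (0.0752) or 2 (0.0625) and without scrambled replicate 1 (0.0564) or 2 (0.0766).

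Tbc1d4 had 9.52, 10.6 and 9.48 RPKM with knockdown, against 13.9, 13.7 and 13.3 RPKM with scrambled hairpin. Every knockdown library was lower. Its log2 fold change was -0.43 ± 0.05 (SE; adjusted p = 1.24e-05), larger in size than in 91.5% of tested genes. Over this comparison 7 of 8 genes had groups that did not overlap, where 59.6% of all tested genes did so.

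How the called genes split by direction depended on the scaling. With overexpression, 2 of the 8 genes were higher and 2 lower after rescaling to TPM, and 4 were higher and 4 lower after median-ratio scaling. For all tested genes overexpression gave 3490 higher and 2285 lower, and 2437 higher and 2580 lower after rescaling to TPM. For knockdown the counts over all tested genes were 2100 higher and 3487 lower, and 2628 higher and 2955 lower after median-ratio scaling. With knockdown, 3 of the 8 were higher and 3 lower after median-ratio scaling, and 2 higher and 3 lower after quantile normalization or after scaling to reads outside the mitochondrial genome.

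**Figure D2:**
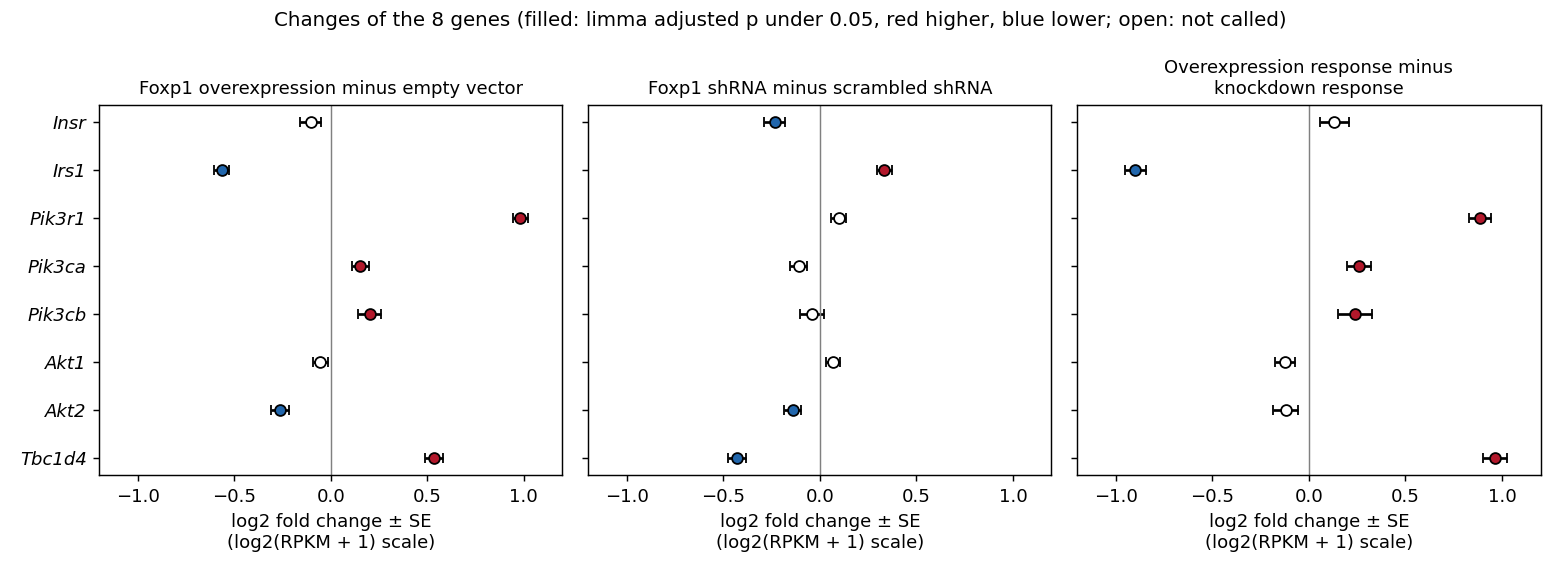
Log2 fold change ± SE on the log2(RPKM + 1) scale (x axis) of each of the 8 genes, for overexpression minus empty vector, Foxp1 shRNA minus scrambled shRNA, and the difference of these responses. Filled points passed limma's adjusted p under 0.05; Irs1 at -0.56 and 0.33 and Tbc1d4 at 0.53 and -0.43 lie on opposite sides of 0 in the first 2 panels.

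The responses were then compared directly, as the response to overexpression minus the response to knockdown, which share no control library. They differed for 5 of 8 genes, 4 with a positive and 1 with a negative difference, where 54.9% of all tested genes differed, made up of 34.6% with a positive and 20.3% with a negative difference. The differences were 0.97 ± 0.06 for Tbc1d4 (log2, SE; adjusted p = 1.09e-07), 0.89 ± 0.06 for Pik3r1 (adjusted p = 9.53e-08) and -0.90 ± 0.06 for Irs1 (adjusted p = 5.26e-08). For Pik3r1 the difference came with a call in overexpression alone. Pik3ca differed by 0.26 ± 0.06 (adjusted p = 0.00364). Pik3cb differed by 0.24 ± 0.09 (adjusted p = 0.0344), a call that ended under 12 of 21 alternatives. Insr, Akt1 and Akt2 had differences of 0.13 ± 0.08, -0.12 ± 0.05 and -0.12 ± 0.06 that did not pass the test. Irs1 and Tbc1d4 were called in opposite directions by more and by less Foxp1, as were 18.1% of all tested genes, and Akt2 was called lower in both, where 10.5% of all tested genes had like calls. After median-ratio scaling the differences of 3 genes were positive and of 3 negative, and after quantile normalization those of 3 and 2.

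Levels across the experiments need the controls beside them. Scrambled cells against empty vector cells gave 6 of 8 genes called, 3 higher and 3 lower, where 71.8% of all tested genes were called (44.8% higher, 27% lower), and 2 of the 8 were higher and 4 lower after quantile normalization. Tbc1d4 was 2.04-fold higher in scrambled cells, with a log2 difference of 0.93 ± 0.05 (SE; adjusted p = 2.93e-09), and Irs1 was at 0.488 of its empty vector level, with a log2 difference of -0.88 ± 0.04 (adjusted p = 1.35e-09). For both genes the gap between the controls was larger than either response to Foxp1. Pik3r1 was at 0.707 of its empty vector level (-0.48 ± 0.04; adjusted p = 4.31e-07) and Akt1 at 0.876 (-0.19 ± 0.04; adjusted p = 0.000592), while Insr and Akt2 were higher by 0.20 ± 0.05 (adjusted p = 0.00516) and 0.19 ± 0.05 (adjusted p = 0.00273). Pik3ca and Pik3cb overlapped between the controls and were not called, so that 6 of 8 genes had control groups without overlap, beside 78.9% of all tested genes. The call of Akt1 ended after rescaling to TPM (limma adjusted p = 0.0515) and that of Insr after quantile normalization (0.0766). Foxp1 itself had 2.18 RPKM in scrambled and 1.80 RPKM in empty vector cells, without overlap (0.18 ± 0.06; adjusted p = 0.0133). Its call ended after median-ratio scaling (0.083) and quantile normalization (0.125). The kind of control and the experiment it belongs to cannot be told apart.

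Over the 4 groups, Irs1 was highest with empty vector, then knockdown, then overexpression, and lowest with scrambled hairpin, and Tbc1d4 ran in the reverse order. The overexpression and knockdown libraries overlapped for both genes, at 5.08 ± 0.25 and 5.18 ± 0.11 RPKM for Irs1 and 10.1 ± 0.44 and 9.86 ± 0.63 RPKM for Tbc1d4 (SD, n = 3 each). The controls were far apart for both genes, while the manipulated groups overlapped. These groups belong to separate experiments, and their levels were set side by side without a test.

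Ratios of partners within a library do not change when a library is multiplied by 1 factor, and were tested by an exact two-sided permutation test of 3 libraries against 3, whose smallest possible p is 0.1. The ratio of Akt2 to Akt1 was 0.577, 0.602 and 0.557 with overexpression, against 0.659, 0.679 and 0.677 with empty vector. It was 0.737, 0.757 and 0.770 with knockdown, against 0.915, 0.868 and 0.845 with scrambled hairpin. The ratio was thus lower under both manipulations with no overlap, by 0.21 on the log2 scale each time, and each exact p was 0.1, the smallest possible (0.133 adjusted over 8 tests). A design of this size cannot reach 0.05.

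The ratio of the regulatory Pik3r1 to its catalytic partners Pik3ca plus Pik3cb was 6.87, 6.45 and 6.81 with overexpression, against 3.95, 3.84 and 3.79 with empty vector. With knockdown it was 3.18, 3.10 and 3.16, against 2.77, 2.61 and 2.76 with scrambled hairpin. It was higher under both manipulations without overlap, by 0.80 with overexpression and 0.22 with knockdown on the log2 scale (exact p = 0.1 each, 0.133 adjusted). This ratio leaves out the other regulatory subunits, Pik3r2 and Pik3r3. Pik3r2 had 33.2 ± 2.5 RPKM with overexpression and 33.9 ± 1.2 RPKM with empty vector. It had 30.2 ± 1.8 RPKM with knockdown and 28.8 ± 1.4 RPKM with scrambled hairpin, and was above Pik3r1 in every group but overexpression. The ratio of Pik3cb to Pik3ca averaged 0.323 ± 0.030 with overexpression and 0.293 ± 0.026 with empty vector, and 0.347 ± 0.017 with knockdown and 0.331 ± 0.003 with scrambled hairpin (SD, n = 3 each). Both pairs of groups overlapped (exact p = 0.3 each).

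Irs2, the other main docking protein, was more abundant than Irs1 in every group. The ratio of Irs1 to Irs2 was 0.430, 0.399 and 0.397 with overexpression, against 0.498, 0.486 and 0.509 with empty vector. With knockdown it was 0.196, 0.198 and 0.194, against 0.152, 0.158 and 0.163 with scrambled hairpin. It was lower with more Foxp1 and higher with less, without overlap (log2 differences of -0.28 and 0.32; exact p = 0.1 each, 0.133 adjusted). It was also lower in every library of the hairpin experiment than in every library of the vector experiment.

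**Figure D3:**
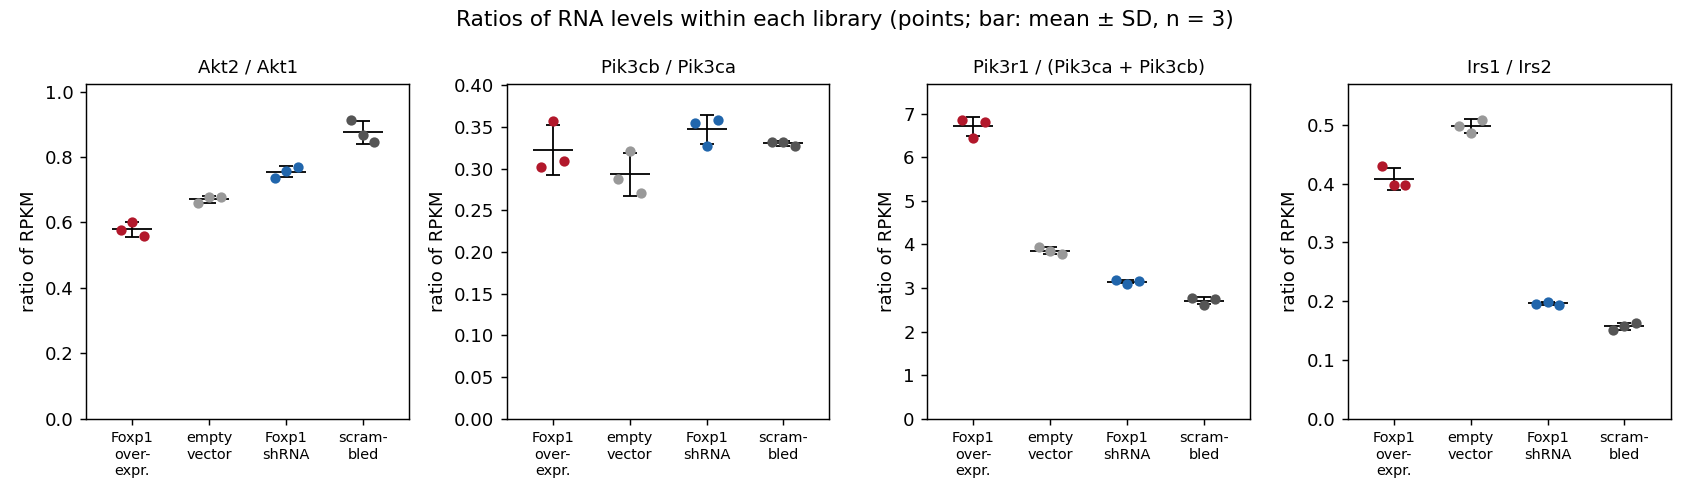
Ratios of RPKM within each library (points, y axis from 0) for Akt2 to Akt1, Pik3cb to Pik3ca, Pik3r1 to Pik3ca plus Pik3cb and Irs1 to Irs2, with bars for mean ± SD of 3 libraries in each group. The Pik3r1 ratio lies between 6.45 and 6.87 with overexpression, and at 3.95 or less in all other libraries.

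The rest of the pathway was read from 92 other genes in 7 lists by role, of which 78 were high enough to test. With overexpression 25 were higher and 16 lower, and with knockdown 12 were higher and 29 lower. These are 41 of 78 in each comparison, near the shares of all tested genes given above, and their median log2 fold changes were -0.01 with overexpression and -0.09 with knockdown. After rescaling to TPM, overexpression gave 20 higher and 20 lower and knockdown 7 higher and 30 lower, and knockdown gave 18 higher and 25 lower after median-ratio scaling and 19 and 24 after quantile normalization. Of the 78 genes, 14 (17.9%) were called in opposite directions by the manipulations and 8 (10.3%) in the same direction, again near the shares of all genes. The counts of each role list are likewise to be read against the all-gene shares, 31% higher and 20.3% lower with overexpression, and 18.7% higher and 31% lower with knockdown.

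At the receptor, the 3 tested genes had log2 fold changes of -0.05 (Igf1r), -0.07 (Ide) and -0.13 (Cav1) with overexpression, with limma adjusted p of 0.278, 0.139 and 0.0513, the last of which passed in 8 of 23 alternatives. With knockdown the related receptor Igf1r was lower, at 1.44 ± 0.04 RPKM against 1.83 ± 0.07 RPKM with scrambled hairpin (log2 fold change -0.22; limma adjusted p = 0.000672), and the caveolar coat protein Cav1 was higher by 0.21. Among 10 adaptors, 4 were higher and 3 lower with overexpression, including Irs2, which fell by 0.34 on the log2 scale to 12.5 ± 1.1 RPKM, against 16.0 ± 0.1 RPKM with empty vector (adjusted p = 0.000137). With knockdown 2 adaptors were higher and 5 lower, led by the docking protein Gab1, with 3.87 ± 0.25 RPKM against 6.58 ± 0.33 RPKM with scrambled hairpin (-0.64; adjusted p = 7.16e-07). Shc1, which links receptors to the RAS pathway, fell by 0.23 with overexpression and fell by 0.35 with knockdown, on the log2 scale.

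Of 5 other PI3-kinase subunits, 1 was higher and 1 lower with overexpression, and 1 was higher and 3 lower with knockdown. Among these 3 was Pik3r4 (-0.12; limma adjusted p = 0.0186), whose call ended in 6 of 22 alternatives, among them median-ratio scaling (0.0652) and quantile normalization (0.177). Pik3r3, another regulatory subunit, went the way of Irs1, with log2 fold changes of -0.26 with overexpression (adjusted p = 2.6e-05) and 0.40 with knockdown (adjusted p = 1.91e-06). Pik3c2a, a class II enzyme, went the other way, at 0.27 with overexpression (adjusted p = 0.00244) and -0.25 with knockdown (adjusted p = 0.00446). Of the 9 kinases beside and above AKT, 4 were higher with overexpression, and the list's median log2 fold change was 0.08, beside 0.04 for all tested genes. The calls of Mapkap1 and Pdpk1, at 0.17 and 0.16, ended in 5 and 6 alternatives, among them rescaling to TPM (limma adjusted p = 0.167 and 0.188). With knockdown 3 kinases were higher and 3 lower. Sgk1, a kinase with a catalytic domain like that of AKT, had 50.8 ± 3.8 RPKM with overexpression against 22.4 ± 0.4 RPKM with empty vector (1.14; adjusted p = 1.84e-09), and was also higher with knockdown (0.23; adjusted p = 0.00219).

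Among 18 inhibitors, 6 were higher and 4 lower with overexpression, and 2 were higher and 5 lower with knockdown. Pik3ip1, a membrane protein that binds and inhibits PI3-kinase, had 4.65 ± 0.38 RPKM with overexpression against 11.3 ± 0.5 RPKM with empty vector (-1.13; adjusted p = 4.08e-09), and was also lower with knockdown (-0.26; adjusted p = 0.00143). Between the controls it differed more than in either response, with a log2 difference of -1.67 for scrambled against empty vector. Trib3, a pseudokinase that can bind AKT, and Inppl1, a lipid phosphatase, were lower with overexpression, by log2 fold changes of -0.64 and -0.55 (adjusted p = 6.03e-06 and 3.18e-05). In knockdown cells the inhibitor of signalling Socs1 was higher (0.28; adjusted p = 0.00831), at 1.28 ± 0.25 RPKM against 0.876 ± 0.096 RPKM. Socs1 reached 1 RPKM only in the knockdown libraries, at 1.37, 1.00 and 1.47 RPKM. It thus met the filter only through the group where it was high, and its call carries that limit. Its reads were few, at 110 to 161 with knockdown and 85 to 105 with scrambled hairpin.

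Downstream of AKT, 3 of 16 effectors were higher and 3 lower with overexpression, and 1 was higher and 6 lower with knockdown. Foxo1, a transcription factor that AKT keeps out of the nucleus, had 22.2 ± 0.9 RPKM with overexpression against 10.8 ± 0.2 RPKM with empty vector (0.98; adjusted p = 1.16e-09), and 10.95 ± 0.52 RPKM with knockdown against 18.1 ± 0.2 RPKM with scrambled hairpin (-0.68; adjusted p = 1.67e-07). Its relative Foxo3 followed it, at 0.36 and -0.28. Pde3b, the phosphodiesterase by which insulin restrains lipolysis, had 3.78 ± 0.28 RPKM with overexpression against 10.9 ± 0.7 RPKM with empty vector (-1.31; adjusted p = 1.33e-09). Eif4ebp1, a brake on translation, had 121.8 ± 2.6 RPKM with overexpression against 195.4 ± 3.4 RPKM with empty vector (-0.68; adjusted p = 1.73e-08).

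Of 17 genes of GLUT4 vesicle traffic, 7 were higher and 5 lower with overexpression, and 2 were higher and 6 lower with knockdown. Slc2a4, Rab10 and Stxbp3 were higher with overexpression and lower with knockdown, as Tbc1d4 was. Slc2a4, the gene of GLUT4 itself, had 83.0 ± 2.4 RPKM with overexpression against 65.2 ± 1.1 RPKM with empty vector (0.34; adjusted p = 3e-05), and 50.3 ± 2.9 RPKM with knockdown against 63.1 ± 1.2 RPKM with scrambled hairpin (-0.32; adjusted p = 7.14e-05). Rab10, a GTPase that TBC1D4 acts on, was at 0.20 and -0.33, and the syntaxin-binding protein Stxbp3 at 0.34 and -0.25. Sort1, a sorting receptor of these vesicles, went the other way, with -0.62 under overexpression (adjusted p = 2.52e-07) and 0.16 under knockdown (adjusted p = 0.0128). Rhoq, of the same list, was lower in both, at -0.44 with overexpression (adjusted p = 1.02e-05) and -0.52 with knockdown (adjusted p = 5.09e-06). Its knockdown change had the smallest adjusted p of the list. Rala was higher with overexpression (0.38; adjusted p = 4.74e-06).

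**Figure D4:**
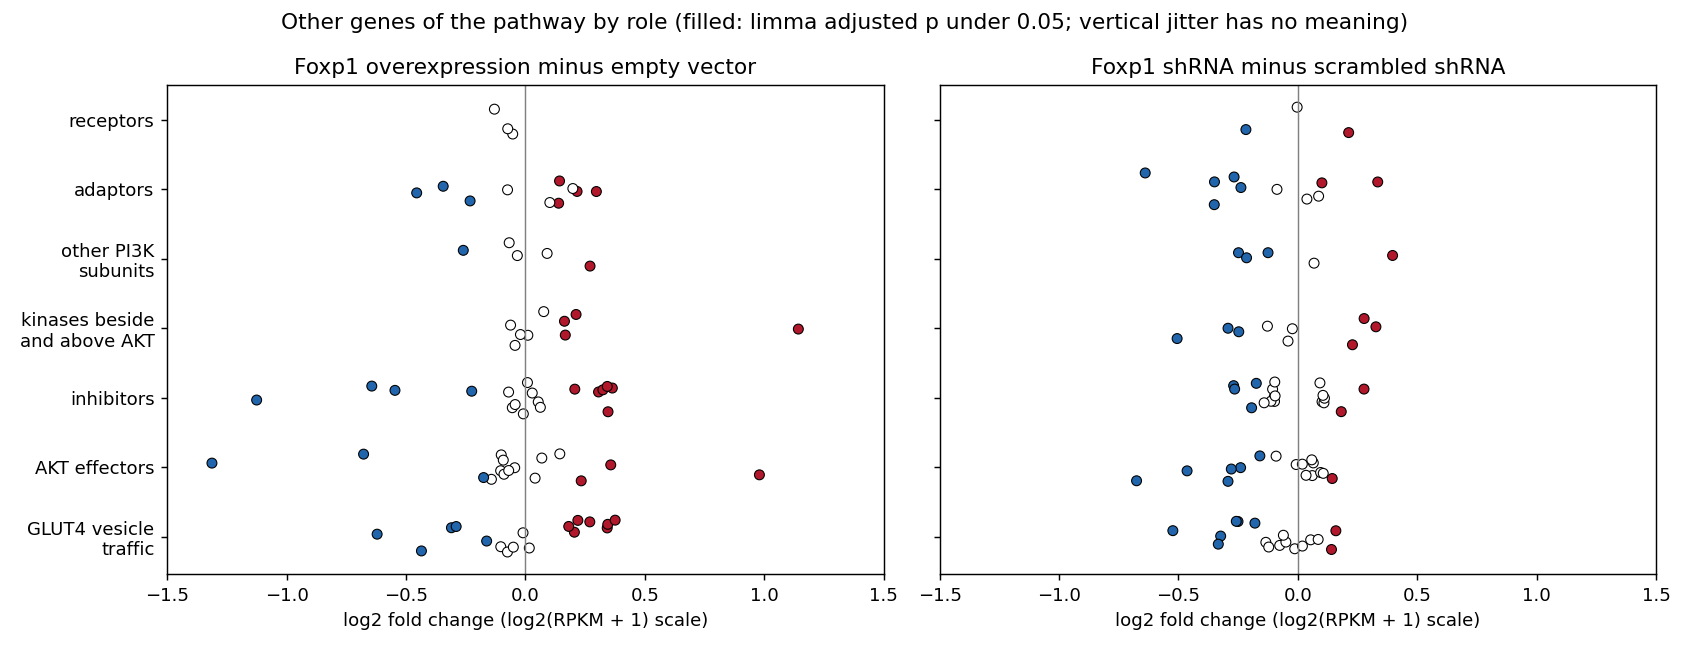
Log2 fold change on the log2(RPKM + 1) scale (x axis) of the 78 tested other pathway genes, in rows by role, for overexpression minus empty vector and for Foxp1 shRNA minus scrambled shRNA. Filled points passed limma's adjusted p under 0.05, and the genes lie on both sides of 0, from Pde3b at -1.31 to Sgk1 at 1.14 with overexpression.

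Genes with the most similar profiles were looked up by Pearson r on log2(RPKM + 1) over the 12 libraries. Because the libraries form 4 groups, r follows mainly the 4 group means, and it is given as a description. For Irs1 these were Slc20a2 (0.992) and Aox1 (0.986), for Pik3r1 Mmp15 (0.996) and Aldh3b3 (0.996), and for Tbc1d4 Itpk1 (0.994) and the metallothionein Mt2 (0.990). For Akt2 they were Tnk2 (0.985) and Stx6 (0.979), and for Akt1 Prpf19 (0.967) and Cyb5rl (0.965). Insr was closest to Heg1 (0.969) and Serac1 (0.968), and Pik3ca to Senp7 (0.980) and Rb1cc1 (0.977). Pik3cb, the lowest of the 8 genes, had the weakest likeness, with Mapkap1 (0.908), a part of the complex that phosphorylates AKT, and Arhgef3 (0.906).

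On the mouse assembly GRCm38 the genes lie on separate chromosomes: Insr at chr8:3122061-3279617, Irs1 at chr1:82233101-82291416, Pik3r1 at chr13:101680563-101768217, Pik3cb at chr9:99036654-99140621, Akt1 at chr12:112653821-112674884 and Tbc1d4 at chr14:101442360-101609191 on the minus strand, and Pik3ca at chr3:32397671-32468486 and Akt2 at chr7:27591552-27640826 on the plus strand. Values count reads over all exons of a gene. The 8 genes thus share no neighbourhood in the genome.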

How the data were processed

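The 4 groups of 3T3-L1 adipocytes had 3 RNA libraries each. The authors deposited RPKM per gene and library. The deposited numbers were RPKM divided by 1000, with sums of 311.82 to 357.68 per library, and were multiplied by 1000 here. Per the submitters' processing notes, HISAT2 2.1.0, featureCounts of Subread 1.5.3 and build mm10 were used. The strand setting and the treatment of reads that match several places are not given in the sources used here. Symbols, exon lengths and positions came from GENCODE M21 (GRCm38), for 28896 of 28948 identifiers. Multiplied by exon length and divided by the value of 1 read in that library, 98.83% to 98.93% of nonzero RPKM came out whole (tolerance 0.05 read). The recovered reads, 35252019 to 38450002 per library, were not used in the main fit. They served for depth, the read counts quoted, the mitochondrial share and the scaling based on it, the voom alternative and the simulated data.

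The filter, 1 RPKM or more in 3 libraries or more, left 11245 genes. The package limma 3.58.1 (R 4.3.3; lmFit, eBayes with a variance trend) was run on log2(RPKM + 1) with all 4 groups in 1 model. Calls had a Benjamini-Hochberg adjusted p under 0.05 over all tested genes. This scale understates fold changes where levels are low. Ratios of group means are therefore given too for those of the 8 genes called with overexpression or with knockdown. The log2 fold changes of low genes, such as Pik3cb, Igf1r and Pik3c2a, stay understated. Ratios within a library were tested by exact permutation in Python 3.11.15 with scipy 1.17.1. Values are means ± SD, and log2 fold changes carry SE. The 8 genes, the 7 role lists and the marker lists were chosen with earlier results of these data known. Named genes are the 8, up to 4 per role list and comparison by smallest adjusted p, and the 2 most similar genes for each of the 8; not all are reported here. Slc2a4 and Rab10 with overexpression, Sort1 with knockdown, Pik3ip1 between the controls and Pik3r2 were named after their values were seen. Promoters came from RefSeq tables for 7 of 8 genes. The fit was tested on simulated data. The alternatives were another pseudocount (0.1), 2 other filters (none, 5 RPKM), 3 other scalings, the 6 libraries of a comparison alone, no variance trend, voom, a replicate block and each library left out; scaling to reads outside the mitochondrial genome was added after the data were seen.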

Additional observations from a re-analysis of the deposited data

How the results depend on the processing

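Over 23 alternatives, 675 of 724 values of the 8 genes kept their direction and side of the threshold, 25 lost a call, 23 gained one and 1 changed sign. This count, and that of the other named genes below, include runs that left out a library outside the comparison. Such runs change the shared estimate of spread but not the log2 fold change, so the direction of those values was fixed in advance. Irs1 and Tbc1d4 kept their calls in every alternative run for all comparisons. So did Pik3r1 with overexpression, for the difference and between the controls. Akt2 with overexpression and between the controls, Insr with knockdown and Pik3ca for the difference did so too. The sign change was Pik3ca between the controls (scrambled minus empty vector), at 0.0449 after rescaling to TPM, and it was called lower after median-ratio scaling (adjusted p = 0.0411) and quantile normalization (0.012). Among the other named genes, Foxp1 included, 1289 of 1325 values were alike, 19 lost a call, 12 gained one and 5 changed sign, all Ide with knockdown, which was not called: 0.0354 after median-ratio scaling, 0.0437 after quantile normalization, 0.0110 with reads outside the mitochondrial genome, and -0.0302 to 0.0265 with 1 library left out. Mapkap1 and Pdpk1 with overexpression lost their calls in 5 and 6 alternatives, Pik3r4 with knockdown in 6 and Foxp1 between the controls in 2. The cause of these changes was not tested. Leaving out 1 library at a time gave 5 to 6 of the 8 genes called with overexpression, 3 to 6 with knockdown, 4 to 5 for the difference and 6 between the controls, and 38 to 43 and 33 to 45 of the other pathway genes. Insr with overexpression became lower after median-ratio scaling (0.0402) or quantile normalization (0.0328) and without overexpression replicate 2 (0.0342). Pik3cb was not tested at the filter of 5 RPKM.

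Between libraries with the same replicate number, the r of deviations from the group mean was -0.013 to 0.118 with overexpression and -0.073 to 0.049 with knockdown. Of 6 manipulated libraries, 2 were closest to the control with their own number. With 3 libraries in each group, this check cannot decide whether the numbers pair them. With a replicate block 7 of the 8 genes were called with overexpression and 6 with knockdown, and 5888 and 5709 of all genes, beside 5775 and 5587 without it. The block also made calls of Insr with overexpression (-0.10; adjusted p = 0.0481) and of Pik3r1 and Pik3ca with knockdown (0.10 and -0.11; 0.0435 and 0.0309). Akt1 became called after median-ratio scaling, with overexpression (0.0381) and with knockdown (0.0151). Pik3cb was read at the least depth.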
